A study of Mus musculus with 6 samples.

Results

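The genes of the voltage-gated calcium and sodium channels were examined in the hippocampus of neonatal mice. Members were the protein-coding genes of the deposited table whose symbols begin with Cacna or Cacnb, or have the form Scn, a number, and a or b. The rule found 32 of the 24935 genes in the table, of which 18 were calcium channel genes and 14 were sodium channel genes. C57BL/6 pups of either sex were kept with their dams in 85% oxygen (hyperoxia) or in room air (air) from P2 to P14, and mRNA of the left hippocampus was sequenced at P14. There were 3 libraries per group, each labelled as a separate animal, and no transgene or deletion is named for either group. Litters are not given for the animals, and dams shared the exposure of their pups. Every direction here rests on the group named in the column headings of the table of values, and air and hyperoxia mean the libraries so headed. In the authors' own comparison table the signs run opposite to hyperoxia minus air by those headings. The study's printed tables and most of its text read the signs as hyperoxia relative to air. Its text is not uniform: ARC, EGR1 and C/EBP mRNA, printed with positive changes, are called decreased in its Results and increased in its Discussion. Which of these is right was not settled from the sources used here. If the headings were exchanged, every rise and fall below would be reversed and the sizes would stay the same.

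Depth ranged from 30384052 to 38746972 reads on genes. Hyperoxia library 2 was the shallowest and stood apart from the other libraries on the second principal component, so it is named beside each call that it changed. The deposited values were read counts divided by a size factor per library, called normalized counts here. Differences were tested with limma on log2(normalized count + 1), hyperoxia minus air, across the 17778 genes that averaged 10 or more, and a gene was called when its Benjamini-Hochberg adjusted p over all those genes was below 0.05. With 3 libraries per group, an exact permutation test of a single value cannot go below 0.1, and p-values describe the spread between these animals only.

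Voltage-gated channels open when the membrane depolarizes. Sodium channels, each built on a large pore-forming α subunit with small membrane-spanning β subunits, carry the rising phase of the action potential and cluster at the axon initial segment and nodes of Ranvier. Calcium channels turn depolarization into calcium entry. The Cav1 (L-type) channels of soma and dendrites couple activity to gene expression. The Cav2 (P/Q-, N- and R-type) channels include those that trigger transmitter release. The Cav3 (T-type) channels open near the resting potential and support burst firing. The pores of Cav1 and Cav2 channels need an intracellular β subunit and an extracellular α2δ subunit to reach the surface in number.

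Of the 32 genes, 29 passed the filter on low values, and 14 were called, 7 higher and 7 lower in hyperoxia. That is 48.3% of those tested, against 30.5% of all genes tested. By direction, 14.9% of all genes were called higher and 15.6% lower. The genes that rose were Cacnb4, Cacna1i, Scn2a, Cacna1g, Scn3a, Cacna2d1 and Cacna2d3. Those that fell included Cacna1h, Cacnb1, Scn3b, Cacnb2, Scn8a and Scn2b. The median log2 change of the 29 was −0.048, near the −0.0072 of all genes tested. Among pore-forming genes, 4 rose and 2 fell of 17 tested, and among auxiliary genes 3 rose and 5 fell of 12. The air and hyperoxia libraries did not overlap for 18 of the 29 genes, 9 higher and 9 lower, against 46.1% of all genes tested (22.3% higher and 23.8% lower). The call was kept under all 16 other ways of processing for 6 genes, among them Cacna1g, Cacna1h, Cacna1i, Cacnb1 and Cacnb4. Single libraries moved the count: leaving out air library 1 left 3 genes called higher and 3 lower, and dropping air library 2, air library 3 or hyperoxia library 1 left 3, 4 and 3 genes called higher. In limma without the mean-variance trend, 3 were called higher, and a correction for transcript length and GC content left 5 higher and 12 lower. In whole tissue, fewer cells of a type and less RNA per cell cannot be told apart, and this holds for every difference here.

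**Figure D1:**
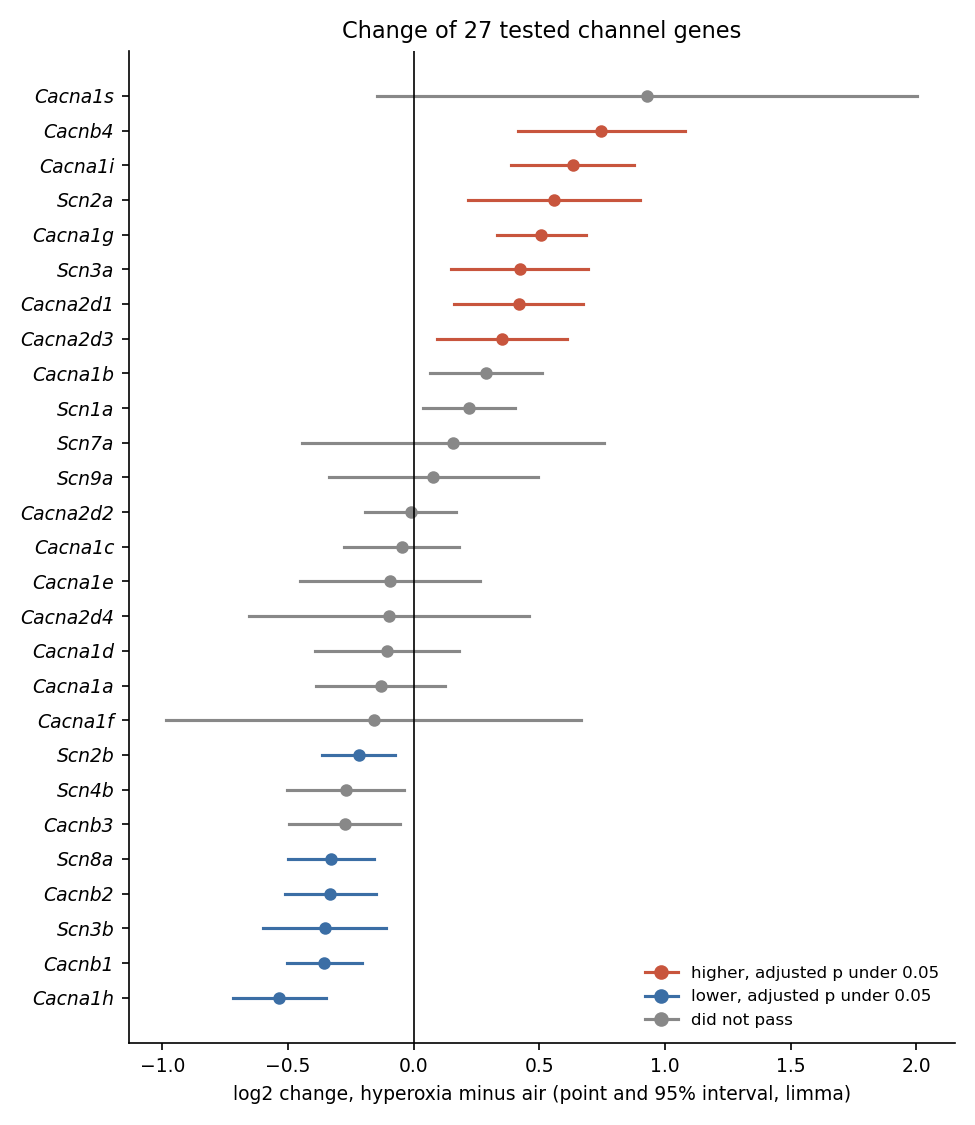
Log2 change (hyperoxia minus air) of 27 tested channel genes, with its 95% interval from limma, ordered by size. Red genes (7) were called higher, blue genes (6) lower, and grey genes (14) did not pass, with the widest intervals for Cacna1s and Cacna1f, the genes with the fewest reads.

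Levels were compared between genes as reads per kilobase of merged exons, scaled to the reads on genes of each library (RPKM). Levels in air were high for Scn3b, at 60.8 RPKM, and for Cacnb3 at 59.5, Scn2b at 46.2 and Cacnb1 at 37.2. These 4 genes encode auxiliary subunits. Among pore-forming genes, Scn8a led at 29.2 RPKM, before Cacna1a at 24.1. The spreads of Scn3b and Cacnb3 in air overlapped, so their order is not resolved. The order also depends on the length used. Per kilobase of the longest transcript, Cacnb3 was at 87.3 and Scn3b at 80.0 in air, and Cacnb1 at 49.6 and Scn2b at 46.2. In all, 23 of the 32 genes were at 1 RPKM or more in air. The other 9 include genes best known from other tissues: Scn4a and Cacna1s from skeletal muscle, Scn9a, Scn10a and Scn11a from sensory neurons, Cacna1f from retina, together with Scn7a and Cacna2d4. Of these, Scn4a, Scn10a and Scn11a had 0 to 7 reads in any library and were below the filter.

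**Figure D2:**
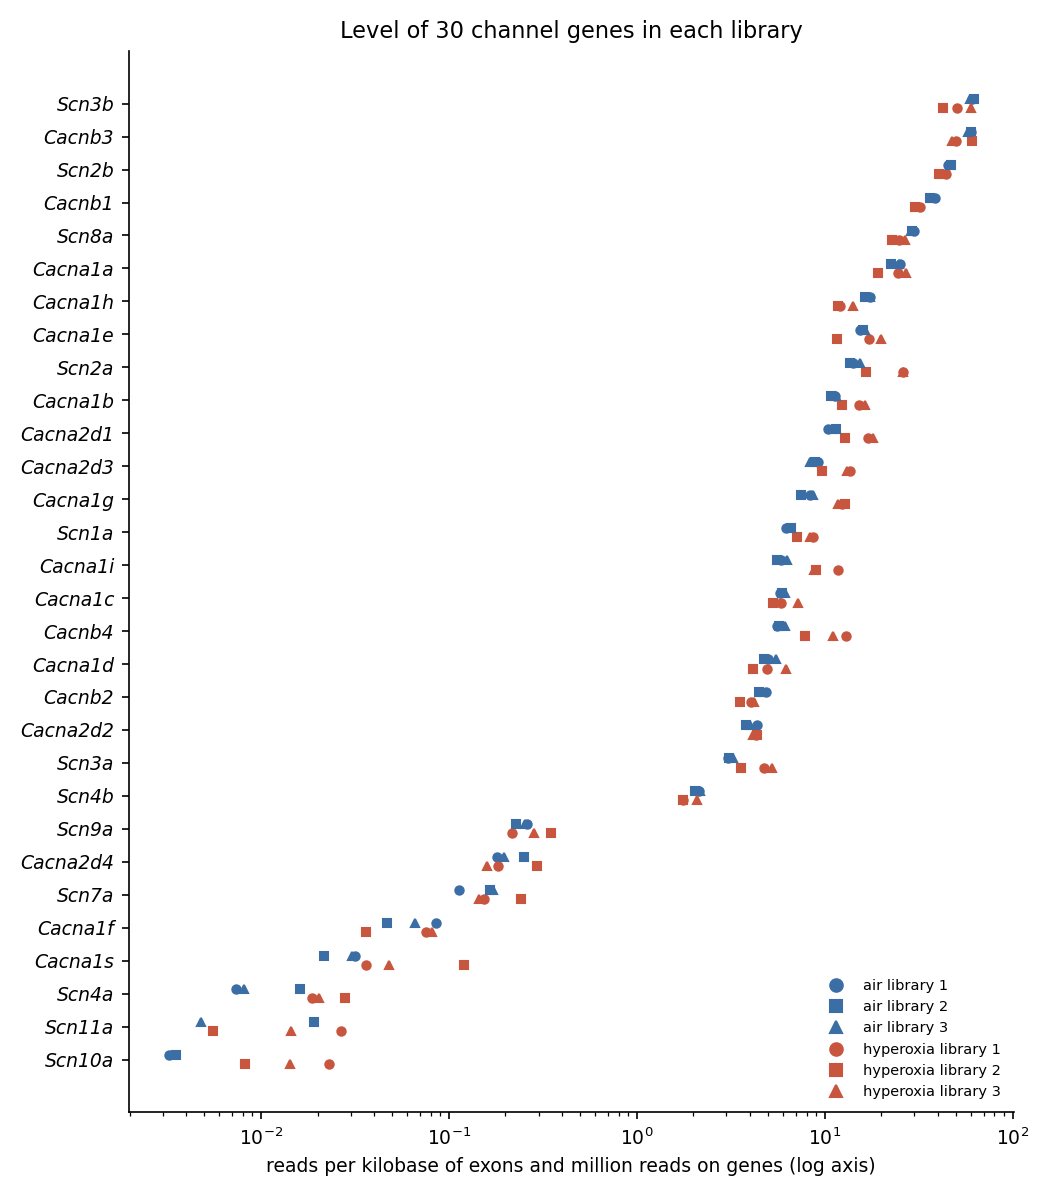
Level of 30 channel genes in every library, in RPKM on a log axis, with air in blue and hyperoxia in red and genes ordered by their mean in air. Scn3b and Cacnb3 lie at the top, at a mean of 60.8 and 59.5 in air, and values of 0 (1 air library each for Scn10a and Scn11a) are not drawn.

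Of the pore-forming sodium channel genes, Scn2a and Scn3a rose, Scn8a fell, and Scn1a did not pass the test. Scn8a (GRCm38 chr15:100869858-101045938, + strand) encodes the channel that dominates the axon initial segment and nodes of mature neurons. Its normalized counts were 17166, 16466 and 16194 in air and 13164, 12379 and 14168 in hyperoxia. All 3 hyperoxia libraries lay below all 3 air libraries. The mean was 16609 ± 502 (SD, n = 3) for air against 13237 ± 897 (SD, n = 3) for hyperoxia, a log2 change of −0.33 ± 0.08 (SE, limma adjusted p = 0.0105). Scn8a no longer passed without air library 1 (−0.31, adjusted p = 0.0554), and its fall was larger after a correction for transcript length and GC content (−0.60, adjusted p = 0.000307).

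Scn2a (chr2:65620771-65767447, + strand) encodes the channel that occupies unmyelinated axons and the immature initial segment of excitatory neurons. Its normalized counts were 6575, 6210.4 and 7052 in air and 11179, 7279.8 and 11297 in hyperoxia. Every hyperoxia library was above every air library, but hyperoxia library 2 was only just above the highest air library. The log2 change was 0.56 ± 0.15 (SE, limma adjusted p = 0.0216). Significance was lost without air library 1 (0.56, adjusted p = 0.0787), air library 2 (0.51, adjusted p = 0.0883) or hyperoxia library 1 (0.46, adjusted p = 0.0870), and in limma without the mean-variance trend (0.56, adjusted p = 0.0767). The change was larger without hyperoxia library 2 (0.77, adjusted p = 2.83e-05) and smaller after a correction for transcript length and GC content (0.25, adjusted p = 0.0348).

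Scn3a (chr2:65457118-65567627, − strand), best known as the sodium channel of the embryonic brain, had normalized counts of 1391, 1379 and 1458 in air and 1989.8, 1531 and 2209 in hyperoxia. The groups did not overlap, and hyperoxia library 2 was again the lowest of its group. It changed by 0.42 ± 0.12 (SE, limma adjusted p = 0.0272) on the log2 scale. This call was fragile: it was lost without any 1 of air library 1 (0.41, adjusted p = 0.0952), 2 (0.41, adjusted p = 0.0947) or 3 (0.45, adjusted p = 0.0642) or hyperoxia library 1 (0.38, adjusted p = 0.0956) or 3 (0.31, adjusted p = 0.0594), without the trend (0.42, adjusted p = 0.0815), and after correction for transcript length and GC content (0.082, adjusted p = 0.292).

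Scn1a, the main sodium channel of fast-spiking interneurons, had normalized counts of 2514, 2645 and 2649 in air and 3231, 2717 and 3160.1 in hyperoxia. The libraries of the groups were separate, yet the log2 change of 0.22 ± 0.08 (SE, limma adjusted p = 0.0698) did not pass, with a 95% interval of 0.035 to 0.40. It passed without hyperoxia library 2 (0.30, adjusted p = 0.00248) and with DESeq2 on the recovered reads (0.23, adjusted p = 0.0469), but the length and GC correction turned its direction (−0.080, adjusted p = 0.361). Of the low genes, Scn7a and Scn9a did not pass, with log2 changes of 0.16 and 0.078 and 95% intervals of −0.44 to 0.76 and −0.34 to 0.50.

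The shares of the pool of brain sodium channel transcripts followed these changes. Per kilobase, Scn8a took 56.1, 55.5 and 53.1% of the reads on Scn1a, Scn2a, Scn3a and Scn8a in the air libraries and 38.6, 45.6 and 40.0% in the hyperoxia libraries. Scn2a took 26.6, 25.9 and 28.6% in air and 40.6, 33.2 and 39.5% in hyperoxia. The ratio of Scn2a to Scn8a normalized counts was 0.383, 0.377 and 0.435 in air and 0.849, 0.588 and 0.797 in hyperoxia. Both genes were chosen from those that moved, in opposite directions and without overlap, so the ratio could not overlap between the groups and is given as a description. Scn2a held a larger share than Scn8a in hyperoxia library 1, the shares were close in hyperoxia library 3, and Scn8a was ahead in hyperoxia library 2 and in all 3 air libraries.

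These genes are close relatives, and reads were 75 bases long. No 75-base window of any Scn8a transcript occurs in another of the 32 genes. For the neighbours on chromosome 2, 365 of 13017 windows of Scn2a (2.80%), 482 of 12525 of Scn3a (3.85%), 215 of 11431 of Scn1a (1.88%) and 349 of 13126 of Scn9a (2.66%) do. Reads were paired, so a read inside such a window could still be placed by its mate. Pairs with both reads inside shared windows could not be assigned to a single gene. The split between Scn2a and Scn3a is therefore less certain than that between Scn2a and Scn8a.

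The promoters of Scn2a and Scn8a are printed because these genes moved apart. They are RefSeq sequences (GRCm38.p6), 250 bases before to 50 after the outermost RefSeq start of each gene. In GENCODE the Scn8a gene begins further upstream than its window. They are in lower case throughout because neither holds the GC box GGGCGG on either strand.
Scn2a promoter: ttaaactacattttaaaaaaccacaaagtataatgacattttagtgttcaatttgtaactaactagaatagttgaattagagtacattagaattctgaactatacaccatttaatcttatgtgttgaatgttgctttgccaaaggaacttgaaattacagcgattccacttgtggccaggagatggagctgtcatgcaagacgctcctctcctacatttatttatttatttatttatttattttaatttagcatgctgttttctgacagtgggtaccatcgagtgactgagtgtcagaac
Scn8a promoter: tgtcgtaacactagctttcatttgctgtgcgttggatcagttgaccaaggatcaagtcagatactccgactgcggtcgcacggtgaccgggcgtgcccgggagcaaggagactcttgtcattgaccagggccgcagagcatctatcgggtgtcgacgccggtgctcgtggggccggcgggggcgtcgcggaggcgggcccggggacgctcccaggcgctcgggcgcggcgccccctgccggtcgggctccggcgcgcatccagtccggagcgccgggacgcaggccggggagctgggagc
The Scn2a window (chr2:65620519-65620818, + strand) has a GC content of 33.0% and 3 CpG dinucleotides, and the Scn8a window (chr15:100870395-100870694, + strand) has 70.0% and 38. The start of Scn2a that lies further downstream (chr2:65668436-65668735) has a window with a GC content of 47.7% and 1 TATA box (TATAAA), and that of Scn8a (chr15:100936021-100936320) has 53.3% and none.

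None of the sodium channel β subunit genes rose. Scn2b and Scn3b fell and Scn4b did not pass, and the air and hyperoxia libraries did not overlap for any of these. Of all genes tested, 46.1% did not overlap (22.3% higher and 23.8% lower). The sodium channel β subunits modulate gating and act as cell adhesion molecules. Scn3b (chr9:40269217-40291618, + strand) had normalized counts of 12149.5, 12154 and 11673 in air and 9279.8, 7988 and 11115 in hyperoxia. Hyperoxia library 3 came close to the air libraries without reaching them. On the log2 scale it differed by −0.35 ± 0.11 (SE, limma adjusted p = 0.0354). Significance was lost without air library 1 (−0.35, adjusted p = 0.116), 2 (−0.35, adjusted p = 0.115) or 3 (−0.37, adjusted p = 0.0823), without hyperoxia library 1 (−0.35, adjusted p = 0.101), and without the trend (−0.35, adjusted p = 0.0963).

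Scn2b (chr9:45117782-45130070, + strand), which is linked to the α subunit by a disulfide bond, had normalized counts of 7684, 7861 and 7771 in air and 6938, 6525 and 6572 in hyperoxia. The groups were separate, but the difference was the smallest of the 14 called. The log2 change was −0.22 ± 0.06 (SE, limma adjusted p = 0.0293). Significance was lost without air library 1 (−0.23, adjusted p = 0.0875), 2 (−0.21, adjusted p = 0.118) or 3 (−0.22, adjusted p = 0.0977), without hyperoxia library 1 (−0.25, adjusted p = 0.0549) or 3 (−0.21, adjusted p = 0.0546), without the trend (−0.22, adjusted p = 0.0668) and after quantile normalization (−0.18, adjusted p = 0.0521). Scn4b, the least abundant β subunit gene, had normalized counts of 389, 364 and 388 in air and 296, 300.0 and 351 in hyperoxia, and its log2 change of −0.27 ± 0.10 (SE, limma adjusted p = 0.0736) had a 95% interval of −0.50 to −0.040. It passed without hyperoxia library 3 (−0.35, adjusted p = 0.0333) and after the length and GC correction (−0.30, adjusted p = 0.0370).

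All 3 genes of the T-type (Cav3) calcium channels were called, and they moved in different directions. Calls were made for 30.5% of all genes tested, 14.9% higher and 15.6% lower. Cacna1g and Cacna1i, which are strongly expressed in thalamic neurons, rose, and Cacna1h, a T-type channel of many neurons and of the hippocampus, fell. Cacna1h (chr17:25374285-25433783, − strand) had normalized counts of 6229.7, 5782 and 6139 in air and 3949.5, 3955 and 4657 in hyperoxia. The gap between the groups was wider than the range of either group. Its mean was 6050.3 ± 237 (SD, n = 3) for air against 4187 ± 407 (SD, n = 3) for hyperoxia, a log2 change of −0.53 ± 0.08 (SE, limma adjusted p = 0.00194).

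Cacna1g (chr11:94408391-94474198, − strand) had normalized counts of 3093, 2720.0 and 3145 in air and 4224, 4448 and 4041 in hyperoxia, with no overlap. It was the only riser called whose change was not larger without hyperoxia library 2 (0.47, adjusted p = 0.000576). On the log2 scale it rose by 0.51 ± 0.08 (SE, limma adjusted p = 0.00204). Cacna1i (chr15:80287238-80398279, + strand) had normalized counts of 2113, 1987 and 2238 in air and 3912, 3043 and 2939 in hyperoxia, again with no overlap and with hyperoxia library 1 the highest. Its log2 change was 0.63 ± 0.11 (SE, limma adjusted p = 0.00309). All 3 T-type calls were kept under every alternative run.

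The shares of the T-type pool followed these changes. Cacna1h took 55.1, 55.8 and 53.9% of the pool per kilobase in the air libraries and 33.2, 35.1 and 40.6% in the hyperoxia libraries. Cacna1g took 26.4, 25.3 and 26.6% in air and 34.2, 38.1 and 34.0% in hyperoxia. Cacna1i took 18.5, 19.0 and 19.5% in air and 32.6, 26.8 and 25.4% in hyperoxia. The ratio of Cacna1g to Cacna1h normalized counts was 0.496, 0.470 and 0.512 in air and 1.07, 1.12 and 0.868 in hyperoxia. This ratio is likewise a description, since both genes were called in opposite directions without overlap. Summed normalized counts of 8 thalamus markers were higher in hyperoxia as well, at 3529 to 3974 in air and 5361 to 7298 in hyperoxia, and those of 7 neocortex and subiculum markers ran from 6947 to 8017 in air and from 8482 to 10909.8 in hyperoxia. In hyperoxia libraries 1, 2 and 3 the thalamus sums were 5361, 7298 and 5376. The neocortex and subiculum sums were 10909.8, 8889 and 8482 in the same order. Cacna1g was highest in hyperoxia library 2, where the thalamus sum was highest. Cacna1i was highest in hyperoxia library 1, where the neocortex and subiculum sum was highest. The thalamus sums of hyperoxia libraries 1 and 3 were nearly equal and below that of hyperoxia library 2. The part of neighbouring tissue in these results was not tested.

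**Figure D3:**
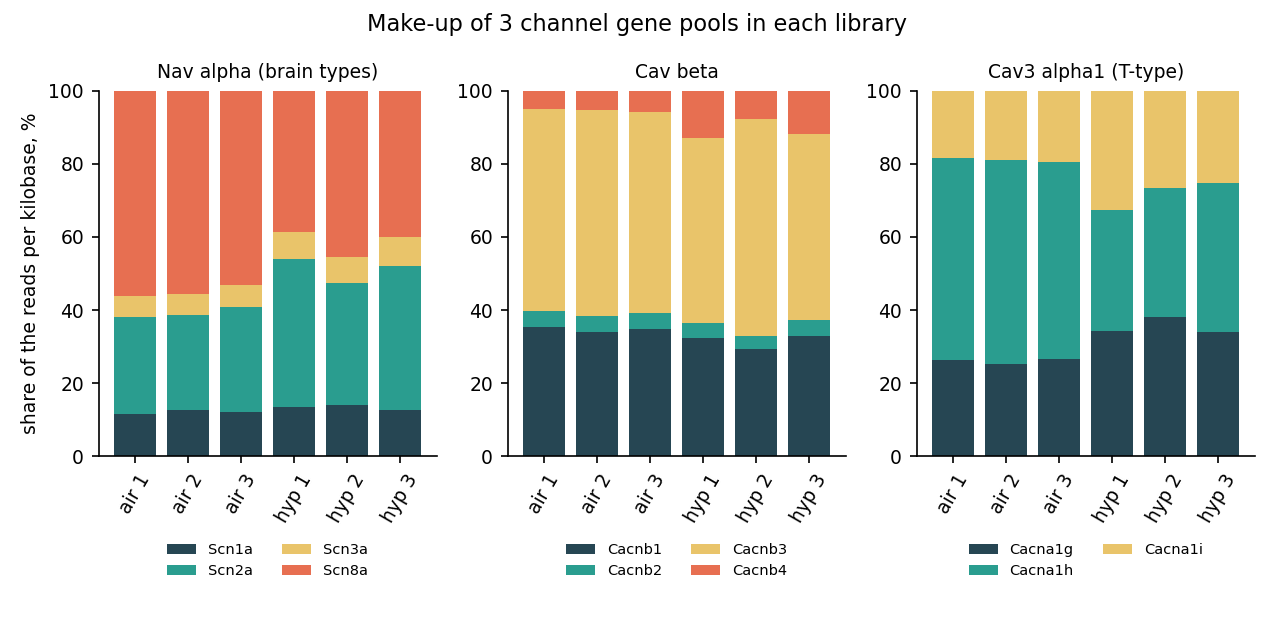
Share of the reads per kilobase of merged exons (percent) taken by each gene of 3 channel gene pools, with a stacked bar for each of the 3 air and 3 hyperoxia (hyp) libraries. Scn8a holds 53.1 to 56.1% of its pool in air and 38.6 to 45.6% in hyperoxia, and Cacna1h holds 53.9 to 55.8% in air and 33.2 to 40.6% in hyperoxia.

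None of the 7 genes for high-voltage-activated calcium channel pores passed the test. After the length and GC correction 4 of them were called lower, namely Cacna1c (−0.34, adjusted p = 0.00277), Cacna1d (−0.36, adjusted p = 0.00384), Cacna1a (−0.26, adjusted p = 0.0361) and Cacna1e (−0.42, adjusted p = 0.00258). Cacna1c, the most highly counted L-type gene and the main L-type channel of hippocampal neurons, had normalized counts of 4441, 4512 and 4649 in air and 4185, 3886 and 5182 in hyperoxia. The groups overlapped, and the log2 change of −0.048 ± 0.10 (SE, limma adjusted p = 0.745) had a 95% interval of −0.28 to 0.18. For Cacna1d, the other neuronal L-type gene, the log2 change was −0.11 with an interval of −0.39 to 0.18. Cacna1f and Cacna1s were counted at 10 to 30 and 5 to 24 reads per library, and their intervals, −0.98 to 0.67 and −0.15 to 2.0, are wide.

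Among the Cav2 genes, Cacna1e (R-type) had normalized counts of 14178, 14569 and 14746 in air and 14653, 10050.2 and 17026 in hyperoxia. The hyperoxia libraries lay within, below and above the range of the air libraries. Its log2 change of −0.094 ± 0.16 (SE, limma adjusted p = 0.684) had a 95% interval of −0.45 to 0.27. Cacna1a (P/Q-type) had a log2 change of −0.13 with an interval of −0.39 to 0.12. Cacna1b (N-type) had normalized counts of 4098, 3877 and 4082 in air and 5085, 4199 and 5526 in hyperoxia, which did not overlap. Its log2 change was 0.29 ± 0.10 (SE, limma adjusted p = 0.0522), just short of the threshold. It passed without hyperoxia library 2 (0.40, adjusted p = 0.000583) and in 5 alternatives that used all libraries, among them TMM scaling (0.29, adjusted p = 0.0489), edgeR (0.30, adjusted p = 0.0446) and DESeq2 (0.31, adjusted p = 0.0196). The length and GC correction brought it closer to 0 (0.076, adjusted p = 0.328).

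Of the α2δ subunit genes, which encode extracellular proteins that raise the number of calcium channels at the surface and act at forming synapses, Cacna2d1 and Cacna2d3 rose and Cacna2d2 and Cacna2d4 did not pass. Cacna2d1 (chr5:15934691-16374511, + strand), a target of gabapentin, had normalized counts of 4741, 5108 and 5111 in air and 7075, 5471 and 7613 in hyperoxia. The groups did not overlap, with hyperoxia library 2 nearest to air. Hyperoxia minus air gave a log2 change of 0.42 ± 0.11 (SE, limma adjusted p = 0.0218). Significance was lost without air library 1 (0.38, adjusted p = 0.0947), 2 (0.43, adjusted p = 0.0662) or 3 (0.44, adjusted p = 0.0588) or hyperoxia library 1 (0.37, adjusted p = 0.0838), without the trend (0.42, adjusted p = 0.0738), and after the length and GC correction (0.11, adjusted p = 0.153).

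Cacna2d3 (chr14:28904943-29721864, − strand) had normalized counts of 2922, 2785 and 2625 in air and 3977, 2901 and 3850.2 in hyperoxia. It was the only called gene whose groups overlapped, since hyperoxia library 2 lay below the highest air library. This gave a log2 change of 0.35 ± 0.12 (SE, limma adjusted p = 0.0446). It no longer passed without air library 1 (0.39, adjusted p = 0.0927), 2 (0.35, adjusted p = 0.121) or 3 (0.31, adjusted p = 0.142), without hyperoxia library 1 (0.27, adjusted p = 0.161) or 3 (0.29, adjusted p = 0.0987), and without the trend (0.35, adjusted p = 0.114). Cacna2d2 had a log2 change of −0.013 with a narrow 95% interval of −0.19 to 0.17, and Cacna2d4, a gene of low count, had −0.099 with an interval of −0.66 to 0.46.

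The intracellular β subunit genes were separated between the groups in all 4 cases, with Cacnb4 higher and the other 3 lower, of which Cacnb3 did not pass. Such separation held for 46.1% of all genes tested, 22.3% higher and 23.8% lower. Cacnb4 (chr2:52428320-52676831, − strand), a β subunit strongly expressed in cerebellum and thalamus, had the largest change of the 14 called genes. Its normalized counts were 1816, 1843 and 1985 in air and 3896, 2416 and 3337 in hyperoxia. The hyperoxia libraries were all above air but differed widely among themselves. The mean was 1881 ± 90.6 (SD, n = 3) for air against 3216 ± 747 (SD, n = 3) for hyperoxia, a log2 change of 0.75 ± 0.15 (SE, limma adjusted p = 0.00550), and it was larger without hyperoxia library 2 (0.94, adjusted p = 2.44e-05) and smaller after the length and GC correction (0.41, adjusted p = 0.00683).

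Cacnb1 (chr11:98001508-98023034, − strand) had normalized counts of 6367, 5934 and 5968 in air and 4903, 4680.3 and 4688 in hyperoxia. The hyperoxia libraries lay close together and below air. It differed by −0.36 ± 0.07 (SE, limma adjusted p = 0.00431) on the log2 scale. Cacnb2 (chr2:14603088-14987908, + strand), best known as the β subunit of the heart, had normalized counts of 2339, 2125 and 2188 in air and 1802, 1612 and 1875 in hyperoxia, with no overlap. Its log2 change was −0.33 ± 0.08 (SE, limma adjusted p = 0.0134), and significance was lost without air library 1 (−0.29, adjusted p = 0.0705). The fall of Cacnb2 was larger after the length and GC correction (−0.56, adjusted p = 0.000260).

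Cacnb3, the most abundant β subunit gene, had normalized counts of 8791, 8688 and 8373 in air and 6742, 8345 and 6415 in hyperoxia. Hyperoxia library 2 was just below the lowest air library, and the other hyperoxia libraries were much lower. The log2 change was −0.28 ± 0.10 (SE, limma adjusted p = 0.0598), with a 95% interval of −0.50 to −0.055, and it passed without hyperoxia library 2 (−0.39, adjusted p = 0.000452). Per kilobase, the share of Cacnb4 in the β subunit pool was 5.09, 5.35 and 5.84% in the air libraries and 13.0, 7.69 and 11.8% in the hyperoxia libraries. Cacnb3 held most of the pool in every library, at 55.1, 56.4 and 55.1% in air and 50.4, 59.4 and 50.8% in hyperoxia.

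The promoters of Cacnb4 and Cacnb1, again members of a single family that moved apart, are printed in the same way (RefSeq, GRCm38.p6), with GGGCGG or its reverse complement in capitals.
Cacnb4 promoter: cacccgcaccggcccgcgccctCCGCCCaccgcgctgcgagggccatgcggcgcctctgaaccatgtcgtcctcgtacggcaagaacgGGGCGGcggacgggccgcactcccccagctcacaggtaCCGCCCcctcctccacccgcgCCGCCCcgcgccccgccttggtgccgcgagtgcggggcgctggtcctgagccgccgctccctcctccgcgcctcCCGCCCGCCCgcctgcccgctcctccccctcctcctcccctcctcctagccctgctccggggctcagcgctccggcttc
Cacnb1 promoter: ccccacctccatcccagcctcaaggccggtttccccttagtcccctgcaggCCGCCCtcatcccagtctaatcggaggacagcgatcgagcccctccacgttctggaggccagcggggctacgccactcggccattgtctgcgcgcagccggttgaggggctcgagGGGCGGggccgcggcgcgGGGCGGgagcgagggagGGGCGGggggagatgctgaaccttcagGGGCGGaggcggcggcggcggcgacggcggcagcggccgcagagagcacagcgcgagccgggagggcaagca
The Cacnb4 window (chr2:52676094-52676393, − strand) has a GC content of 78.3%, 40 CpG dinucleotides and 6 matches to the GC box, and the Cacnb1 window (chr11:98022578-98022877, − strand) has 73.7%, 34 and 5. These are the outermost RefSeq starts, and in GENCODE both genes begin further upstream than their windows. The windows of the other RefSeq starts have a GC content of 49.7% and 69.7% for Cacnb4 and 59.3% for Cacnb1, and hold no GC box. RefSeq promoters were at hand for 24 of the 32 genes, 34 promoters in all. GGGCGG, searched on both strands, occurred in 14 of these (41.2%) and in 35.7% of 32851 mouse promoters of the same length. TATAAA occurred in 2 (5.88%) against 13.6%. TGACGTCA, CACGTG and TTCAGCACC (a cAMP response element, an E-box and the left part of the REST site) were in none of the 34 and in 1.79%, 7.15% and 0.371% of all promoters. A match describes the letters only.

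**Figure D4:**
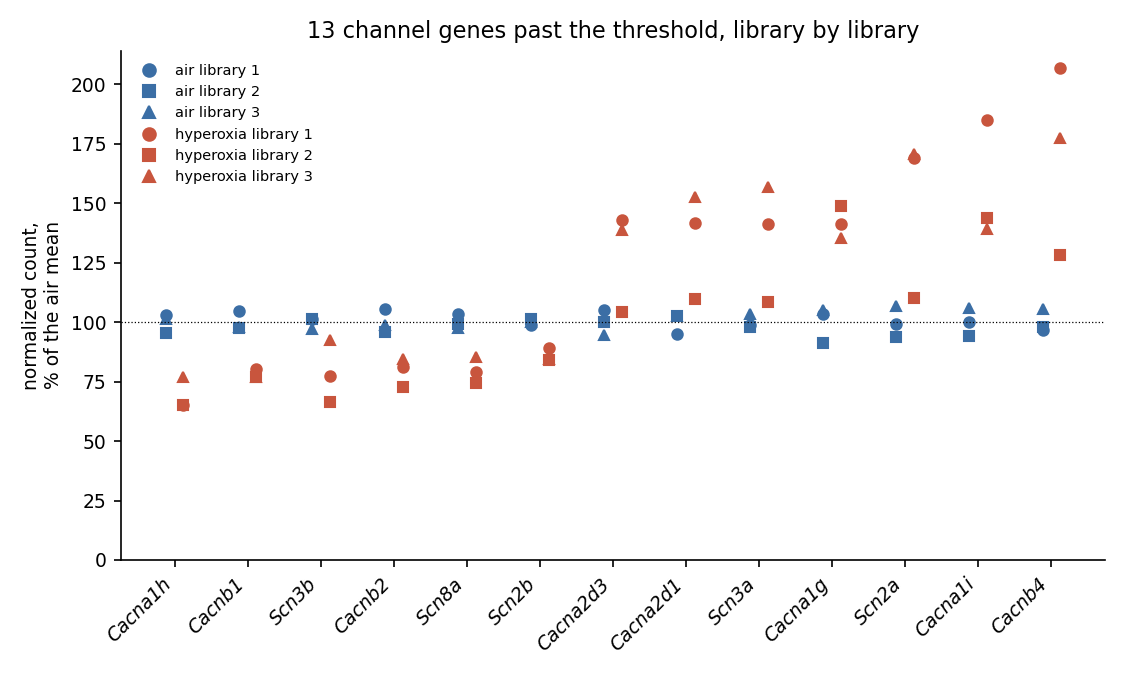
Normalized count of 13 called channel genes in every library, as a percent of that gene's mean in air, with air libraries in blue and hyperoxia libraries in red. The 3 hyperoxia points lie below the 3 air points for all 6 genes shown that fell, and hyperoxia library 2 (red square) is the lowest of its group for 5 of the 7 genes that rose and for 5 of the 6 that fell.

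The genes listed as partners of these channels numbered 39, of which 37 were tested, 6 rose and 10 fell. Among all genes tested, 14.9% were called higher and 15.6% lower, so the share of partners that rose was near that of all genes. Without air library 1, 6 partner genes fell, and after the length and GC correction 17 did. Of the calcium channel partners (presynaptic scaffolds, calmodulin and calcium sensors, RGK inhibitors, Stac proteins and γ subunits), 2 rose and 8 fell of 21 tested. Rims2, a presynaptic scaffold at Cav2 channels, was 1 of those that rose (log2 change 0.59 ± 0.09, adjusted p = 0.00158). The largest falls were those of Rrad, an RGK inhibitor of calcium channels (log2 change −1.01 ± 0.24, adjusted p = 0.0129), of Stac2, which binds L-type channels (log2 change −0.74 ± 0.10, adjusted p = 0.00106), of Cacng7, a γ subunit that also regulates AMPA receptors (log2 change −0.57 ± 0.09, adjusted p = 0.00239), and of Calm2, a calmodulin gene (log2 change −0.57 ± 0.08, adjusted p = 0.00156). Rrad had only 48, 44 and 34 reads in air and 19, 21 and 21 in hyperoxia, and its significance was lost without air library 1 (−0.94, adjusted p = 0.0612) or 2 (−0.95, adjusted p = 0.0619).

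Of the sodium channel partners (axon initial segment scaffold, intracellular FGFs, ubiquitin ligases and adhesion proteins), 3 rose and 2 fell of 12. The shares over all genes tested were 14.9% higher and 15.6% lower. Fgf12, an intracellular FGF that modulates sodium channel gating, rose (log2 change 0.71 ± 0.11, adjusted p = 0.00201), as did Cntn1, an axonal adhesion protein that binds sodium channel β subunits (log2 change 0.64 ± 0.12, adjusted p = 0.00424). Ank3, the ankyrin that anchors sodium channels at the axon initial segment, did not pass, with a log2 change of 0.035 and a 95% interval of −0.22 to 0.29. In the remaining list, Nalcn, the sodium leak channel, rose (log2 change 0.51 ± 0.10, adjusted p = 0.00541) while Unc79, Unc80 and Fam155a of the same complex did not pass.

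Marker genes of several cell types were called, and their part in the channel results was not tested. Among all genes tested, 14.9% were called higher and 15.6% lower, so a list with 1 call does not stand out from all genes. No marker was at 0 in any library. Of 5 dentate granule cell markers, 4 fell (summed normalized counts of 17757 to 18063 in air and 10539 to 15711 in hyperoxia), and of 8 CA2 and CA3 markers 3 fell (12042 to 12945 and 8538 to 11429). Of 6 oligodendrocyte markers, 5 fell (211426 to 321844 and 144727 to 177382). In the other direction, 4 of 7 thalamus markers tested, 5 of 7 neocortex and subiculum markers, 3 of 6 astrocyte markers and 3 of 5 endothelial markers rose, as did 2 of 6 oligodendrocyte precursor markers, 2 of 5 microglia markers and 1 of 5 mural cell markers. None of 4 skeletal muscle markers tested passed. Of 8 pan-neuronal markers, 3 rose and 3 fell, and the summed counts of the groups overlapped. Of 9 interneuron markers, Reln and Vip rose and Pvalb fell, with overlapping sums. Of 5 CA1 markers 1 rose, with overlapping sums. Of 7 choroid plexus markers tested 1 rose, and their sum was 553 to 1432 in air and 496 to 8260.2 in hyperoxia, the highest in hyperoxia library 3.

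Transcript length and GC content went along with the changes, in the channel genes as in all genes. Across the 29 genes, Spearman's rho of the log2 change was 0.41 with the length of the longest transcript and −0.33 with its GC content. Across the 17735 genes with both values it was 0.28 and −0.21. These are correlations across genes of the same libraries, which are not independent. The 7 genes that rose had a median GC content of 43.4% (40.5 to 59.3%), and the 7 that fell had 50.8%. Cacna1g and Cacna1i rose at 58.1% and 59.3%, and Cacnb2 fell at 39.0%, so the groups were not divided by GC content.

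After a smooth correction for length and GC content across all genes, 26 of the 29 values were lower than before. Of the 7 risers 5 were still called, all but Cacna2d1 (0.11, adjusted p = 0.153) and Scn3a (0.082, adjusted p = 0.292), and all 7 that fell were still called. In addition, 5 genes became called as lower, the 4 high-voltage-activated pore genes named above and Scn4b. The split thus went from 7 higher and 7 lower to 5 higher and 12 lower, and whether the high-voltage-activated pore genes fell depended on this step.

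**Figure D5:**
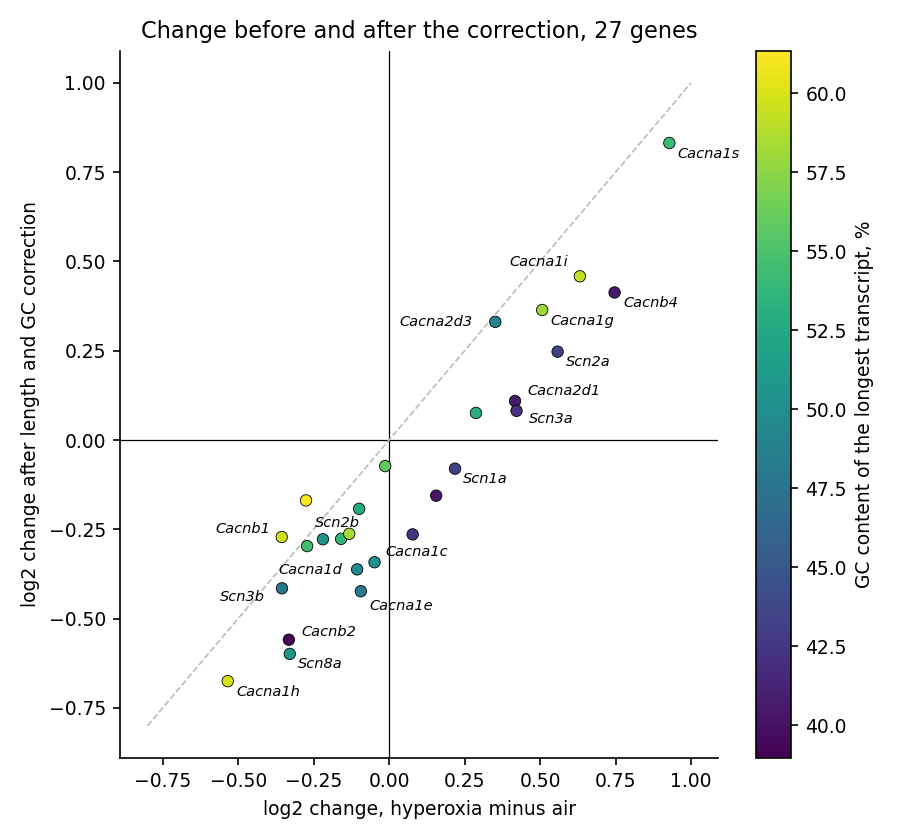
Log2 change (hyperoxia minus air) of 27 tested channel genes before (horizontal axis) and after (vertical axis) a correction for transcript length and GC content across all genes, coloured by the GC content of the longest transcript in percent. Points under the dashed line of equality (25 of 27) moved down, Cacnb4 from 0.75 to 0.41 and Scn8a from −0.33 to −0.60.

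Some exons overlap a gene on the other strand. Exons of Cacnb4 share 16.0% of their length with A430018G15Rik and those of Cacna1s share 1309 bases with Gm37759. Exons of Cacna1a, Cacna1d, Cacna1h, Cacna2d2, Cacnb1, Cacnb2 and Scn9a share up to 4.67% with another gene. The libraries were made with a strand-specific kit, and use of strand in counting was not given in the sources used here.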

How the data were processed

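Hippocampal mRNA from 6 mice, 3 per group, was sequenced as paired 75-base reads from strand-specific polyA libraries. Per the submitters' processing notes the tools were FastQC, STAR 2.5.3a, HTSeq and DESeq2, with the genome build not given in the sources used here. In the deposited table each value is a normalized signal, which the authors made by dividing the read count of each gene by a size factor per library with DESeq2. A second deposited table holds the authors' own comparison (means, fold changes and p-values) and was not used; its signs run opposite to hyperoxia minus air by the column headings. Whole reads were recovered for all genes (100% of values whole within 0.01) and gave the depth and the count tests.

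Samples were grouped by title, and columns by the group in their heading. Main tests used limma 3.58.1 in R 4.3.3 with a mean-variance trend, a pseudocount of 1, a mean of at least 10 and Benjamini-Hochberg adjustment over all genes tested, without covariates. Alternatives were edgeR 4.0.16 and DESeq2 1.42.0 on recovered reads, TMM scaling, quantile normalization, pseudocounts of 0.5 and 5, a mean of at least 50, no filter, no trend, omission of each library, and a smooth correction for length and GC content (mgcv 1.9.3). Scripts were tested on simulated data. Coordinates, lengths and GC content came from GENCODE M21 (GRCm38), which held 99.7% of the gene identifiers and all 32 channel genes. Genes with full values were those called and the most highly counted gene of each subfamily, and partners were named for the 4 largest called changes in each direction, with Scn1a, Scn4b, Cacna1b, Ank3 and the rest of the Nalcn complex added after their values were seen. The channel genes, partner and marker lists were chosen with earlier results of these data known. Protein sequences were not used here. Some genes enter the counts and medians, but their own values are not reported here. Reads were not counted by molecular identifiers, and no interval covers more than the spread between libraries.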

Additional observations from a re-analysis of the deposited data

How the results depend on the processing

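The directions of all 14 called genes were the same under every alternative that was run. Across the 29 tested channel genes and all alternatives, 394 values kept their direction and their side of the threshold, 37 lost the call, 15 gained it and 15 changed sign. Calls were the most sensitive to air library 1, without which 8 of the 14 were lost. All 14 were kept by edgeR, DESeq2 and TMM scaling.

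With 1 library left out, the number of channel genes called higher ranged from 3 to 9 and lower from 3 to 8 (7 and 7 with all libraries), partner genes called lower from 6 to 11 (10 with all), all genes called higher from 1445 to 3838 and all genes called lower from 1603 to 3918. The highest values for channel genes and all genes were those without hyperoxia library 2. The cause was not tested. Without the trend, 3 channel genes were called higher. After the length and GC correction, 12 channel genes and 17 partner genes were called lower.

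Signs changed only for genes that were not called. With 1 library left out, the log2 changes ranged over −0.17 to 0.039 for Cacna1c, −0.25 to 0.023 for Cacna1d, −0.26 to 0.12 for Cacna1e, −0.38 to 0.18 for Cacna1f, −0.060 to 0.044 for Cacna2d2, −0.37 to 0.082 for Cacna2d4, −0.083 to 0.30 for Scn7a and −0.094 to 0.26 for Scn9a, of which Cacna1c, Cacna1d, Cacna1e, Cacna1f, Scn7a and Scn9a changed sign without hyperoxia library 2. After the length and GC correction, Scn1a was at −0.080, Scn7a at −0.16 and Scn9a at −0.26.

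No paired analysis was possible because the labels number the animals 1 to 6 across the groups and tie no air animal to a hyperoxia animal. Reads on the low genes limit what can be seen: Scn4a, Scn10a and Scn11a had at most 7 reads in a library.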

Other observations

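On chromosome 2, 5 sodium channel genes are neighbours. In GENCODE coordinates (GRCm38) they run from Scn3a (chr2:65457118-65567627) through Scn2a (chr2:65620771-65767447), Scn1a (chr2:66270778-66440840) and Scn9a (chr2:66480080-66634962) to Scn7a (chr2:66673425-66784914). Their log2 changes, hyperoxia minus air, were 0.42, 0.56, 0.22, 0.078 and 0.16 in that order, all above 0, with Scn3a and Scn2a called and the others not. Scn8a lies on chromosome 15 and fell. The 3 β subunit genes on chromosome 9, Scn3b (chr9:40269217-40291618), Scn2b (chr9:45117782-45130070) and Scn4b (chr9:45138395-45154152), were at −0.35, −0.22 and −0.27, with Scn3b and Scn2b called. After the length and GC correction, Scn1a, Scn9a and Scn7a were below 0.

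The 3 genes below the filter were listed with more reads in hyperoxia. Scn10a had 1, 1 and 0 reads in the air libraries and 7, 2 and 4 in the hyperoxia libraries, Scn11a had 0, 4 and 1 and 6, 1 and 3, and Scn4a had 2, 4 and 2 and 5, 6 and 5. These numbers are too small for a fold change, and no test was made.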
